A study of Homo sapiens with 9 samples.

Results

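The genes described here are targets and feedback inhibitors of bone morphogenetic protein (BMP) signalling: the inhibitor of DNA binding genes ID1, ID2, ID3 and ID4, the SMAD genes SMAD6, SMAD7 and SMAD9, the pseudoreceptor gene BAMBI, and the extracellular antagonist genes FST and NOG. They were taken by symbol from a table of raw RNA-seq counts, which held all 10 of them among 60199 gene symbols. RNA was measured in 3 lines of MCF10A, a non-malignant human mammary epithelial line with a deleted CDKN2A and an amplified MYC, with 3 cultures of each line called independent in the design text. CT cells were MCF10A kept in the usual medium without added factors and were labelled as not transformed. MC26 cells came from unsorted MCF10A and M1B26 cells from MCF10A sorted for the receptor BMPR1B, both had become transformed during prolonged culture with BMP2 plus IL6, and both factors were kept in their medium. M1B26 was expanded from soft-agar clones. The paper states that the sorted cells became transformed faster, within a few weeks, so the time spent with the factors may also differ between the transformed lines. BMP2 and IL6 were always given together and remained in the medium of both transformed lines. An effect of either factor, an ongoing response to the medium and a lasting property of the transformed cells therefore cannot be told apart. For M1B26, neither can the sorting, the cloning and the time to transformation.

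BMP ligands such as BMP2 join type I and type II receptors, which phosphorylate SMAD1, SMAD5 and SMAD9, and these enter the nucleus with SMAD4. The ID genes are among the best known direct targets. Their proteins have a helix-loop-helix but no DNA-binding region, pair with E proteins such as those of TCF3, TCF4 and TCF12, and keep them off DNA, which is known to hold back differentiation in many epithelia. The pathway also switches on its own inhibitors: SMAD6 and SMAD7 act at the receptors inside the cell, BAMBI is a receptor-like membrane protein without a kinase, and noggin (NOG) binds BMPs outside the cell. Follistatin (FST) binds mainly activins and also some BMPs.

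A known BMP-responsive element, first described upstream of ID1, joins GGCGCC to a SMAD4-binding stretch at a spacing of 5 bases. The 5000 bases before the canonical start of each of 20043 protein-coding genes (GRCh38, GENCODE 44) were searched on both strands for GGCGCCNNNNNGNC, which was present before 15.4% of genes and before 6 of the 10 members. The stricter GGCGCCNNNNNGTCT fixes the last N of the first form as T and adds a further T, so each of its matches contains a match of the first. It was present before 0.52% of genes and before ID2 and ID3 among the members. GGCGCC alone was present before 60.8% of genes and before 9 of the 10 members. For each of the 6 members that hold the first form, the match nearest to the start (for SMAD6, the match on the gene strand) is printed with 30 bases read along the gene and the matching bases in capitals, so that the shared letters can be compared. Its centre lies 958 bases upstream of the start for ID1, 3107 for ID2, 2955 for ID3, 1250 for SMAD6, 774 for SMAD7 and 727 for BAMBI, where it is on the opposite strand.
ID1, chr20:31604316-31604345, plus strand: gcccgcgcGGCGCCAGCCTGACagtccgtc
ID2, chr2:8678934-8678963, plus strand: acgcgcctGGCGCCAGAGAGTCtgctccgg
ID3, chr1:23562442-23562471, minus strand: cccaccctGGCGCCAGGCTGTCtggggctg
SMAD6, chr15:66700971-66701000, plus strand: cgcccgccGGCGCCCCGCGGTCaccgcggg
SMAD7, chr18:48951725-48951754, minus strand: gaggaggaGGCGCCGAGAGGACaccggggc
BAMBI, chr10:28676779-28676808, plus strand: ccagtgtcGTCTCGTTGGCGCCgggtgctt

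The ID2 site lies in an untranslated exon of an alternative ID2 transcript and inside the antisense gene ID2-AS1. A match is a description of the letters, not evidence of binding, and for ID4, SMAD9, FST and NOG it says only that these letters were not in the window.

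Total counts per library ran from 21425118 (CT replicate 2) to 80076597 (CT replicate 3), and values are given as CPM, counts scaled to a library size of 1000000 by TMM. Of the 60199 genes, 15717 had enough counts to be tested, including 9 of the 10 members. All 11 mammary epithelial markers were detected in every line. The summed leukocyte markers ran from 11.7 to 17.2 CPM in CT, 21.3 to 24.6 in MC26 and 39.2 to 53.3 in M1B26, with PTPRC and CD3E at or under the floor of 3 counts per library. The summed fibroblast markers ran from 44.4 to 45.5 CPM in CT, 52.8 to 78.4 in MC26 and 41.7 to 55.3 in M1B26. COL1A2, COL3A1 and THY1 were at or under the floor. In CT, MC26 and M1B26 the mean CPM was 29.0, 22.9 and 14.0 for DCN and 7.43, 29.0 and 14.4 for FAP. It was 7.73, 9.74 and 15.4 for COL1A1 and 0.108, 0.128 and 5.11 for LUM. The summed endothelial markers ran from 8.15 to 8.26 CPM in CT, 2.19 to 3.77 in MC26 and 3.65 to 6.59 in M1B26, with CDH5 and VWF at or under the floor and PECAM1, KDR and TEK above it in CT. The part of these marker levels in the results was not tested. In such bulk RNA, fewer cells that express a gene and less RNA per cell cannot be told apart.

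The members did not follow the same course in the transformed lines. Against CT, 8 of the 9 tested members were called higher in MC26 (edgeR quasi-likelihood test, Benjamini-Hochberg adjusted p under 0.05) and 0 were called lower, where 18.8% of all tested genes were higher and 19.9% lower. Against CT, 5 of the 9 were called higher in M1B26 and 0 lower, where 25.2% of all tested genes were higher and 23.7% lower. Tested directly between the transformed lines, 7 of the 9 were called lower in M1B26 and 0 higher, where 18.4% of all tested genes were lower and 21.2% higher. With DESeq2 or at an unadjusted edgeR p under 0.05, 0 members were lower than CT in either line, and 0 were higher in M1B26 than in MC26 with DESeq2, whereas FST was higher there at an unadjusted edgeR p of 0.0242. The median log2 fold change of the 9 members was 1.77 in MC26 and 0.78 in M1B26 against CT, whereas that of all tested genes was 0.001 and 0.002. Both comparisons used the same CT libraries.

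The MC26 libraries lay above all CT libraries for the same 8 members, where 24.6% of all tested genes did so, and the M1B26 libraries for 6, where 30.0% did. For 7 members the M1B26 libraries lay below all MC26 libraries, where 25.6% of all tested genes did. The smallest p that an exact permutation test of 3 libraries against 3 can give is 0.1, so the calls rest on the spread that the model shares across genes.

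**Figure D1:**
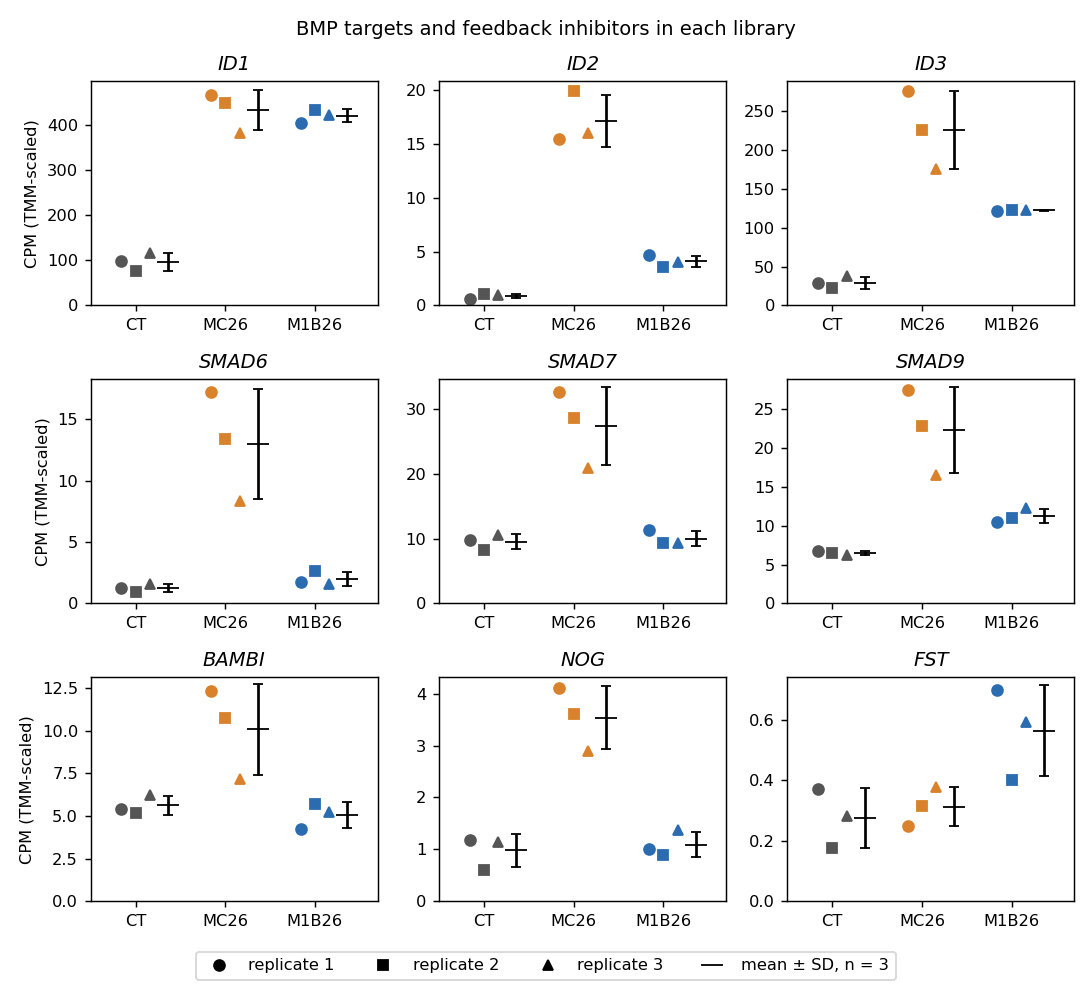
Level of the 9 tested members (panels) in each line (x axis), in CPM on linear axes from 0 that differ between panels (y axis), with 1 symbol per replicate beside the mean ± SD of the line (n = 3). All MC26 libraries lie above all CT libraries for every member shown but FST, and the M1B26 libraries overlap the CT libraries for SMAD7, BAMBI and NOG.

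ID1, ID2 and ID3 were the only members with a log2 fold change above 2 in both transformed lines, and ID1 and ID3 had the highest levels of all members. ID1 (chromosome 20, 31605283 to 31606515, 2 exons) had 98.9, 76.7 and 117 CPM in the 3 CT libraries, 468, 449 and 383 in MC26, and 406, 435 and 422 in M1B26. All 6 libraries of the transformed lines stood far above CT, and those of MC26 and M1B26 overlapped. The log2 fold change of ID1 against CT was 2.15 in MC26 (SE 0.134, edgeR adjusted p 1.27e-06) and 2.11 in M1B26 (SE 0.134, adjusted p 9.09e-07). Between M1B26 and MC26 it was -0.04, with a 95% interval from -0.32 to 0.24, and it did not pass the test (edgeR adjusted p 0.821).

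ID3 (chromosome 1, 23557926 to 23559501, 3 exons) is often expressed with ID1. Its levels were 28.4, 21.9 and 37.5 CPM in CT, 276, 226 and 176 in MC26, and 122, 122 and 122 in M1B26. The 3 lines did not overlap, with M1B26 between the others. The M1B26 libraries had a coefficient of variation of 0.298%, below the 1.33% that counting alone would give on average, so this closeness is not a measure of the biological spread. ID3 rose by 2.93 on the log2 scale in MC26 (SE 0.192, edgeR adjusted p 1.67e-06) and by 2.05 in M1B26 (SE 0.187, adjusted p 9.64e-06). It was lower in M1B26 than in MC26 by -0.88 on the log2 scale (SE 0.179, edgeR adjusted p 0.00291).

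ID2 (chromosome 2, 8678845 to 8684461, 3 exons) had the lowest CT level of the ID genes that were tested and showed the steepest change of all members. It had 0.643, 1.05 and 0.964 CPM in CT, 15.4, 19.9 and 16.05 in MC26, and 4.67, 3.57 and 4.05 in M1B26. The lines did not overlap. The log2 fold change was 4.32 in MC26 (SE 0.191, edgeR adjusted p 1.49e-07), a 20.0-fold rise, and 2.26 in M1B26 (SE 0.193, adjusted p 6.33e-06), a 4.78-fold rise. ID2 was 4.18-fold lower in M1B26 than in MC26 (edgeR adjusted p 8.09e-06). The antisense gene ID2-AS1, which overlaps ID2, had 3 to 10 counts in each library, and the strand setting of the counting is not given in the sources used here.

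ID4 (chromosome 6, 19837370 to 19842197, 3 exons) was not detectable at this depth. It had 0 counts in all CT and MC26 libraries and 1 count in each M1B26 library, which is under the floor of 3 counts, so it was not tested. That floor is 0.131 CPM in the shallowest library and 0.0366 CPM in the deepest, and it covers counting error only.

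The makeup of the ID pool can be compared between genes only per length. Divided by the length of the canonical transcript, the ID genes summed to 130 ± 28.4 CPM per kb in CT, 692 ± 97.0 in MC26 and 560 ± 14.6 in M1B26 (mean ± SD, n = 3 libraries each). ID1 made up 76.0 ± 1.15% of this sum in CT, 64.0 ± 2.62% in MC26 and 76.5 ± 0.625% in M1B26. ID3 made up 23.4 ± 1.22%, 34.1 ± 2.93% and 23.0 ± 0.534%, in the same order. ID2 stayed a small part, with 0.546 ± 0.218%, 1.93 ± 0.350% and 0.564 ± 0.0904%. M1B26 held a larger ID pool than CT at shares that overlapped those of CT for all 3 genes, whereas the ID1 shares of MC26, 61.2% to 66.4%, lay below every CT and M1B26 library. These shares are a description without a test. ID1 and then ID3 had the highest level per kb of all members in each line.

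**Figure D2:**
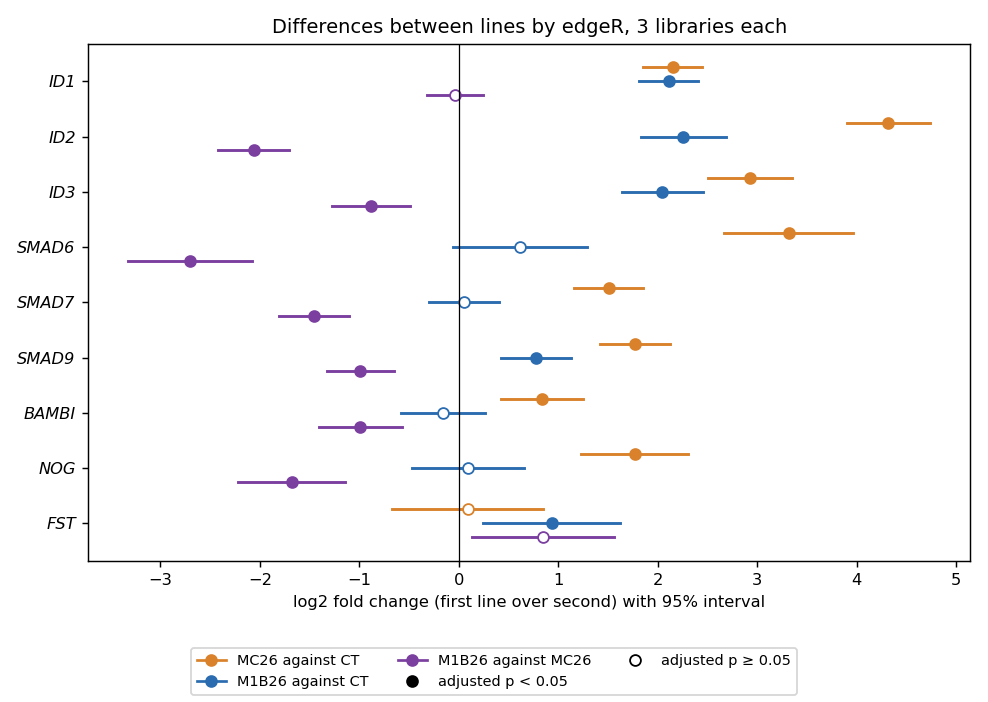
Log2 fold change (x axis) of the 9 tested members (rows) between lines, by edgeR with 3 libraries per line, where points are estimates, bars are 95% intervals and open points have an adjusted p of 0.05 or more. ID1 stands near 2 against CT in both lines, while SMAD7, BAMBI and NOG stand near 0 in M1B26 and above 0 in MC26.

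Both inhibitory SMAD genes rose in MC26 and were lower in M1B26 than in MC26, and SMAD6 had the largest difference of all members between the transformed lines. SMAD6 (chromosome 15, 66702236 to 66782849, 4 exons), which acts chiefly on BMP receptors and on SMAD1, had 1.23, 0.961 and 1.56 CPM in CT. It had 17.2, 13.4 and 8.33 CPM in MC26 and 1.78, 2.67 and 1.57 in M1B26. All MC26 libraries stood well above the rest, and the lowest M1B26 library stood just above the highest CT library. The log2 fold change in MC26 was 3.32 (SE 0.294, edgeR adjusted p 1.19e-05), a 9.96-fold rise. In M1B26 it was 0.61, with a 95% interval from -0.06 to 1.29 (edgeR adjusted p 0.120), and it was called higher there without the filter on low counts (adjusted p 0.0139) and without MC26 replicate 3 (adjusted p 0.0497). SMAD6 was 6.51-fold lower in M1B26 than in MC26 (edgeR adjusted p 5.13e-05). A lncRNA on the same strand overlaps SMAD6 in the annotation, so part of these counts could belong to it.

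SMAD7 (chromosome 18, 48919853 to 48950965, 4 exons) inhibits the receptors of both BMP and TGF-beta. Its levels were 9.83, 8.30 and 10.6 CPM in CT, 32.7, 28.7 and 20.9 in MC26, and 11.4, 9.33 and 9.31 in M1B26. MC26 stood above both other lines, and M1B26 overlapped CT. The log2 fold change was 1.505 in MC26 (SE 0.160, edgeR adjusted p 4.12e-05). In M1B26 it was 0.05 with a 95% interval from -0.30 to 0.40 (edgeR adjusted p 0.821), and -0.04 when libraries were scaled by total counts. A rise of the size seen in MC26 lies outside that interval. M1B26 was 2.74-fold lower than MC26 (edgeR adjusted p 6.92e-05).

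SMAD9 (chromosome 13, 36844831 to 36920887, 7 exons) encodes the third receptor-activated SMAD of the BMP branch, a weaker activator than SMAD1 and SMAD5, and is itself a known BMP target. It had 6.79, 6.55 and 6.30 CPM in CT, 27.5, 22.9 and 16.6 in MC26, and 10.4, 11.01 and 12.2 in M1B26. The lines did not overlap and the order was the one seen for ID2 and ID3. SMAD9 rose by 1.77 on the log2 scale in MC26 (SE 0.160, edgeR adjusted p 1.37e-05) and by 0.78 in M1B26 (SE 0.160, adjusted p 0.00217). The difference between M1B26 and MC26 was -0.99 (SE 0.154, edgeR adjusted p 6.44e-04). The intronic transcript SMAD9-IT1 had 1 count in MC26 replicate 2 and 0 counts elsewhere. In contrast to SMAD9, the levels of SMAD1, SMAD5 and SMAD4 did not pass the test in either line, with log2 fold changes from -0.22 (SMAD1, MC26) to -0.05 (SMAD5, M1B26). SMAD1 was called lower in MC26 with total counts, with a mean of at least 50 counts and without MC26 replicate 3 (edgeR adjusted p 0.0256, 0.0456 and 0.0144), as was SMAD4 with total counts (adjusted p 0.0492).

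BAMBI (chromosome 10, 28677510 to 28682932, 3 exons) changed least among the members that rose in MC26. It had 5.43, 5.20 and 6.22 CPM in CT, 12.3, 10.7 and 7.15 in MC26, and 4.24, 5.70 and 5.25 in M1B26. MC26 did not overlap either line, while M1B26 overlapped CT. The log2 fold change was 0.83 in MC26 (SE 0.187, edgeR adjusted p 0.00522) and -0.16 in M1B26, with a 95% interval from -0.58 to 0.26 (edgeR adjusted p 0.518). BAMBI was 1.99-fold lower in M1B26 than in MC26 (edgeR adjusted p 0.00207).

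Of the extracellular antagonists, NOG moved with the inhibitory SMADs and FST did not. NOG (chromosome 17, 56593699 to 56595611, 1 exon) had 1.19, 0.611 and 1.15 CPM in CT, 4.10, 3.61 and 2.89 in MC26, and 1.01, 0.899 and 1.37 in M1B26. The MC26 libraries stood above all others, and M1B26 overlapped CT. The log2 fold change was 1.77 in MC26 (SE 0.244, edgeR adjusted p 2.57e-04), and 0.09 in M1B26 with a 95% interval from -0.47 to 0.65 (edgeR adjusted p 0.798). Between the transformed lines NOG differed by -1.68 (SE 0.244, edgeR adjusted p 4.25e-04). On chromosome 17, the median over its 843 tested genes stood at 0 in MC26 and at 0.48 in M1B26 on the log2 scale against CT, and the part of that shift in the NOG value of M1B26 was not tested.

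FST (chromosome 5, 53480626 to 53487134, 6 exons) was near the limit of detection, with 4 to 32 counts per library. It had 0.371, 0.175 and 0.281 CPM in CT, 0.249, 0.314 and 0.376 in MC26, and 0.699, 0.402 and 0.591 in M1B26. The M1B26 libraries stood above all others, and MC26 overlapped CT. FST was the only tested member with its highest level in M1B26, and its log2 fold change there was 0.93 (SE 0.314, 95% interval 0.24 to 1.62, edgeR adjusted p 0.0293). That call was lost with DESeq2 (adjusted p 0.0800) and with edgeR without CT replicate 2, CT replicate 3, M1B26 replicate 1 or M1B26 replicate 3 (adjusted p 0.0669, 0.0933, 0.111 and 0.0740). In MC26 the log2 fold change was 0.09, with a 95% interval from -0.67 to 0.85 (edgeR adjusted p 0.911), and the difference between M1B26 and MC26 was 0.85 (edgeR adjusted p 0.0585).

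Single pairs of members could be compared within each library, without any scaling, as a ratio of counts. No ratio with ID2 was formed, so the ratios do not give a balance of targets and inhibitors as a whole. These ratios were chosen after the levels had been seen and carry no test. There were 10.1 ± 0.886 ID1 counts per SMAD7 count in CT, 16.1 ± 2.02 in MC26 and 42.5 ± 6.04 in M1B26 (mean ± SD, n = 3 libraries each), and the 3 lines did not overlap. Per SMAD6 count there were 78.3 ± 3.17 ID1 counts in CT, 35.5 ± 9.57 in MC26 and 220 ± 53.7 in M1B26. Here too the lines did not overlap, but MC26 lay below CT. Per SMAD7 count there were 3.02 ± 0.463 ID3 counts in CT, 8.22 ± 0.322 in MC26 and 12.3 ± 1.42 in M1B26, again without overlap. The ratio of ID1 to ID3 was 3.36 ± 0.218 in CT and 3.44 ± 0.108 in M1B26, which overlapped, and 1.96 ± 0.242 in MC26.

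Within MC26 the members varied together. Replicate 1 was the highest and replicate 3 the lowest for 7 of the 9 tested members, all but ID2 and FST, an order found in 22.8% of all tested genes. The ratio of replicate 1 to replicate 3 was 2.07 for SMAD6, 1.72 for BAMBI, 1.66 for SMAD9, 1.57 for ID3, 1.56 for SMAD7, 1.42 for NOG and 1.22 for ID1, against 0.962 for ID2 and 0.661 for FST. Over all tested genes the median of this ratio was 0.999. Where the mean reached 5 CPM it was 1.5 or more for 5 of 7 members and for 204 of 10637 genes (1.92%). In CT, replicate 3 was the highest and replicate 2, the shallowest library, the lowest for 5 of the 9 members. That order was found in 28.2% of all tested genes. In M1B26 the most common order, replicate 2 highest and replicate 1 lowest, held 3 of the 9 members and 12.8% of all tested genes. Replicate numbers carry no order, and these patterns were noticed in the values and are descriptions only.

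Some other genes of the pathway, picked after their values were seen, stood in the same order within MC26 and some did not. The BMP target gene DLX2 had 17.6, 13.2 and 6.94 CPM in MC26 replicates 1 to 3. PMEPA1, which encodes an inhibitor of TGF-beta signalling, had 99.7, 72.9 and 50.4 CPM, and FSTL3, a follistatin-like antagonist gene, had 345, 266 and 201. JUNB did not follow this order, with 150, 155 and 161 CPM, and neither did INHBA, which encodes an activin subunit, with 0.846, 0.889 and 0.635. The cause of the spread was not tested. Without MC26 replicate 1 or without MC26 replicate 3, the comparison of MC26 with CT still called 8 members higher, and that of M1B26 with MC26 still called 7 lower.

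**Figure D3:**
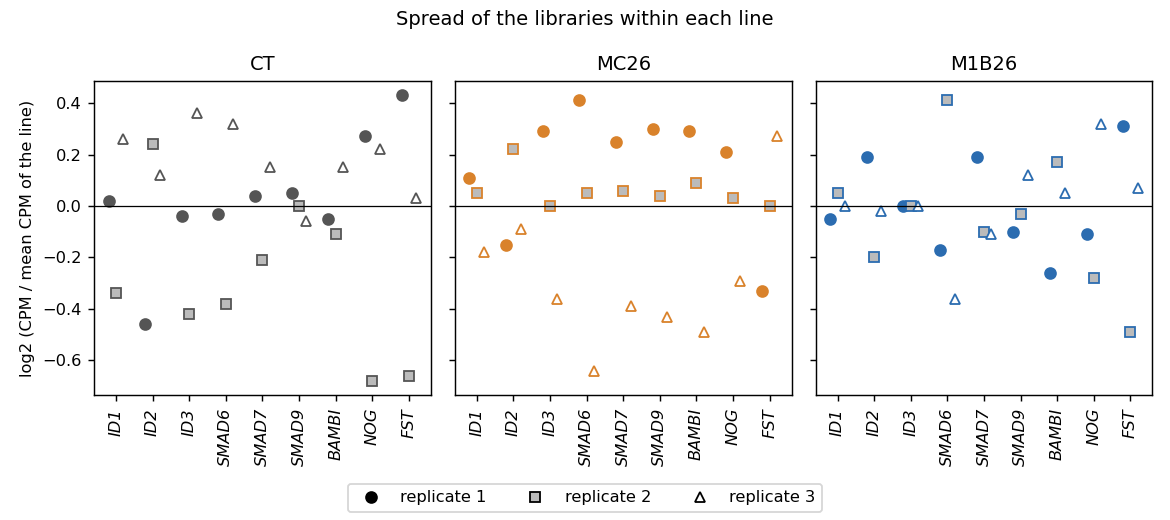
Log2 of the level of each tested member (x axis) in each library over the mean CPM of its line (y axis), with 1 panel per line and 1 symbol per replicate. In MC26, replicate 1 lies on top and replicate 3 at the bottom for 7 of 9 members, while in M1B26 the 3 ID3 points coincide at 0.

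For each member the 3 genes with the most similar course were sought among the 10637 genes whose mean reached 5 CPM, by the root mean square (RMS) difference of centred log2 CPM over the 9 libraries. The nearest gene was HS3ST3A1 for ID1 (RMS 0.139), HSD17B2 for ID2 (0.368), BDKRB1 for ID3 (0.164) and KCNJ15 for SMAD6 (0.374). It was PPP2R2C for SMAD7 (0.138) and for NOG (0.257), FAP for SMAD9 (0.133), PPARD for BAMBI (0.149) and ZNF219 for FST (0.220). PGBD5 was among the 3 nearest for both ID2 (0.552) and ID3 (0.208), and KRT6B for both ID1 (0.230) and ID3 (0.224). SMAD7 was itself the second nearest gene to NOG (0.285), and DLX2, a homeobox gene known as a BMP target, the second nearest to SMAD6 (0.442).

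Other genes of the pathway, listed by role, did not move as one block. Of 16 other transcription factor genes known as BMP targets, 14 were tested, of which 8 rose and 2 fell in MC26 and 6 rose and 3 fell in M1B26. The 8 include DLX3. DLX3 had 1.57, 0.97 and 0.42 CPM in MC26, 0, 0 and 0.0122 in CT, and 0, 0.0237 and 0.0369 in M1B26. It passed the filter on low counts through MC26 alone, so its rise there adds no support. Of all tested genes, 18.8% were higher and 19.9% lower in MC26, and 25.2% were higher and 23.7% lower in M1B26. The median log2 fold change of the 14, DLX3 included, was 0.82 in MC26 and 0.42 in M1B26. GATA2, a haematopoietic and endothelial regulator, rose in both lines, by 2.76 on the log2 scale in MC26 (edgeR adjusted p 1.10e-05) and by 3.75 in M1B26 (adjusted p 8.75e-07). It was higher in M1B26 than in MC26 by 0.99 (edgeR adjusted p 0.00252), whereas ID2 and ID3 were lower there. JUNB, an AP-1 subunit gene that also answers to IL6, had log2 fold changes of 1.67 and 1.48 (edgeR adjusted p 4.69e-06 and 7.17e-06).

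DLX2 and ATOH8, of the same list, were both lower in M1B26 than in MC26, by -2.29 and -2.24 on the log2 scale (edgeR adjusted p 4.06e-04 and 3.11e-04). DLX2 had 1.59, 1.75 and 2.27 CPM in CT, 17.6, 13.2 and 6.94 in MC26, and 3.65, 2.11 and 1.96 in M1B26. Its log2 fold change was 2.73 in MC26 (edgeR adjusted p 1.28e-04) and 0.44 in M1B26 (adjusted p 0.324). ATOH8, a helix-loop-helix factor gene, had 4.96, 5.94 and 7.44 CPM in CT, 4.50, 5.07 and 5.22 in MC26, and 0.451, 1.11 and 1.51 in M1B26. Its log2 fold change was -0.31 in MC26 (edgeR adjusted p 0.392), and it fell by 2.56 on the log2 scale in M1B26 (adjusted p 6.48e-05).

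Among 17 other intracellular negative regulators of SMAD signalling, 16 were tested, with 5 higher and 5 lower in MC26 and 3 higher and 6 lower in M1B26. Over all tested genes, 18.8% were higher and 19.9% lower in MC26, and 25.2% were higher and 23.7% lower in M1B26. SKIL, which encodes a repressor of SMAD target genes, rose in MC26 by 1.26 on the log2 scale (edgeR adjusted p 3.53e-04), its value in M1B26 was -0.21 (adjusted p 0.369), and M1B26 differed from MC26 by -1.48 (adjusted p 1.56e-04). TOB1, whose protein is known to restrain BMP SMADs, fell in both lines, by 1.66 in MC26 (edgeR adjusted p 1.88e-06) and by 0.78 in M1B26 (adjusted p 1.62e-04). Only 4 of 17 other extracellular antagonists were expressed enough to be tested. Of these, 1 was higher and 1 lower in MC26, and 0 were higher and 1 lower in M1B26. FSTL3 rose by 1.26 in MC26 (edgeR adjusted p 5.64e-04), and its value in M1B26 was 0.30 (adjusted p 0.229). For FSTL3, M1B26 differed from MC26 by -0.96 (edgeR adjusted p 0.00286). The medians of both lists lay between -0.09 and 0.13 against CT, near those of all genes.

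Of 9 TGF-beta and activin target genes all were tested, with 5 higher and none lower in MC26 and 3 higher and 3 lower in M1B26. Among all tested genes, 18.8% were higher and 19.9% lower in MC26, and 25.2% were higher and 23.7% lower in M1B26. The median log2 fold change of the 9 was 0.98 in MC26 and -0.03 in M1B26. Between the transformed lines it was -1.11. There, 5 of the 9 were lower and 2 higher in M1B26, where 18.4% of all tested genes were lower and 21.2% higher. ITGB6, an integrin subunit gene, rose in both, by 1.49 and 1.47 (edgeR adjusted p 5.01e-05 and 3.74e-05), and the difference of -0.02 between M1B26 and MC26 did not pass the test (adjusted p 0.918). LTBP2, a latent TGF-beta binding protein gene, fell by 1.22 in M1B26 (edgeR adjusted p 3.48e-05), and its value in MC26 was -0.12 (adjusted p 0.519). SKIL and PMEPA1 stand in both this list and the list of intracellular regulators.

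Among the genes that act upstream of the members, 13 of 15 receptor, SMAD and ligand genes were tested, with 2 higher and 3 lower in MC26 and 1 higher and 4 lower in M1B26. The shares of all tested genes were 18.8% higher and 19.9% lower in MC26, and 25.2% higher and 23.7% lower in M1B26. BMPR1A did not pass the test in either line (log2 fold changes of -0.11 and -0.08), while BMPR1B was lower in M1B26 by -0.61 (edgeR adjusted p 0.00189) and BMPR2 by -0.66 (adjusted p 4.72e-04). BMP2 had 2.79, 2.14 and 2.43 CPM in CT, 2.06, 2.90 and 2.40 in MC26, and 1.65, 1.94 and 1.72 in M1B26, which shows the RNA of the cells and not the BMP2 added to the medium. BMP2 was called lower in M1B26 against CT (log2 fold change -0.49, edgeR adjusted p 0.0372). That call was lost without a filter, with a replicate block (edgeR adjusted p 0.0708 and 0.0521) and on leaving out any of 5 of the 9 libraries. INHBA, whose product follistatin binds, fell by 1.23 on the log2 scale in MC26 (edgeR adjusted p 0.00143), and its value in M1B26 was 0.36 (adjusted p 0.158). M1B26 was higher than MC26 by 1.59 (edgeR adjusted p 3.05e-04).

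The E protein partners of the ID proteins changed little. Of 10 helix-loop-helix partners 4 were tested, and TCF12 alone was called, lower by -0.34 in MC26 (edgeR adjusted p 0.00599) and by -0.25 in M1B26 (adjusted p 0.0207). The call in M1B26 was lost without CT replicate 1, M1B26 replicate 1 or M1B26 replicate 2 (edgeR adjusted p 0.0516, 0.0850 and 0.0765). For comparison, 19.9% of all tested genes were lower in MC26 and 23.7% in M1B26. TCF3 had 142 ± 26.8 CPM in CT, compared with 160 ± 8.004 for MC26 and 151 ± 3.64 for M1B26 (mean ± SD, n = 3), with log2 fold changes of 0.17 and 0.09. TCF4 had 12.6 ± 1.26, 11.7 ± 1.47 and 12.5 ± 1.12 CPM.

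**Figure D4:**
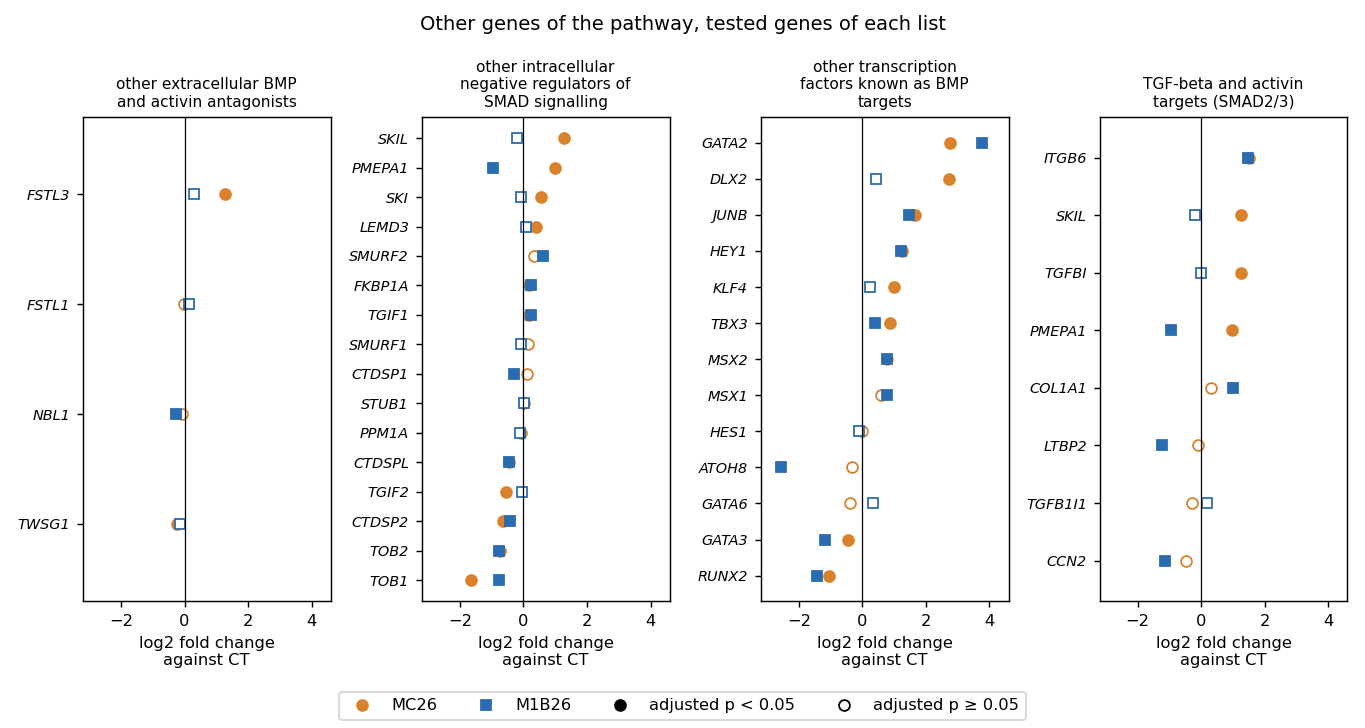
Log2 fold change against CT (x axis) of the tested genes of 4 lists (panels) in MC26 (circles) and M1B26 (squares), filled where the edgeR adjusted p is under 0.05, with DLX3 left out because CT stood at or under the floor of 3 counts, and 1 gene of the last list not shown. GATA2, JUNB and HEY1 stand above 0 in both lines, whereas DLX2 and SKIL do so by at least 1 in MC26 alone.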

How the data were processed

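Poly-A RNA of 9 MCF10A cultures (3 CT, 3 MC26, 3 M1B26) was sequenced. The values used were raw counts per gene symbol deposited by the authors, who aligned reads to GRCh38 with STAR 2.7.3a and GENCODE v33. Salmon 1.1.0 is also named in the submitters' processing notes, but the table holds whole counts, and the counting program and its strand setting are not given in the sources used here. Groups and replicate numbers came from the sample titles.

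Counts were analysed with edgeR 4.0.16 in R 4.3.3. Genes passing filterByExpr (minimum count 10) were scaled by TMM (factors 0.968 to 1.07), and all 9 libraries entered 1 quasi-likelihood model with a term for the line alone. The 3 pairs of lines were compared by 2-sided tests, with Benjamini-Hochberg adjustment over 15717 genes and a threshold of 0.05. The SE is the absolute log2 fold change over the square root of F, and intervals cover 95%. The script was tested on simulated data with known changes. Lengths and positions came from GENCODE 44, and upstream bases were read from GRCh38. No protein sequence was used.

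The members and gene lists were chosen with earlier results of these data known. Beyond the members, genes were named if called in either comparison with CT with a log2 fold change of 1 or more in size and a mean of 1 CPM or more, up to 3 per list and comparison, and BMP2, its receptors, SMAD1, SMAD5, SMAD4, INHBA and the E proteins whatever their values. A gene so chosen is not reported here. PMEPA1, HEY1 and DLX3 were named after their values were seen. The alternatives tried were total counts or RLE factors for scaling, DESeq2 1.42.0, a filter on a mean of 50 counts or none, only the 6 libraries compared, a replicate block, an adjusted p under 0.01, glmTreat at 1.5-fold, exonic length, and leaving out each library. The sources used here give no preparation batches, so batch and line cannot be told apart.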

Additional observations from a re-analysis of the deposited data

Results flagged for a closer look

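For 7 members the effect differed between the transformed lines, by the direct edgeR test of M1B26 against MC26, in which the shared CT libraries cancel. The log2 fold changes were -2.06 for ID2, -0.88 for ID3, -2.70 for SMAD6, -1.46 for SMAD7, -0.99 for SMAD9, -0.99 for BAMBI and -1.68 for NOG. The calls of ID3 and BAMBI were lost with glmTreat at 1.5-fold (glmTreat adjusted p 0.19 and 0.095). The libraries of M1B26 and MC26 did not overlap for any of the 7, where 25.6% of all tested genes were lower in M1B26 without overlap.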

How the results depend on the processing

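Counts of called members were 7 to 8 in MC26 and 3 to 6 in M1B26 against CT, and 5 to 8 between the transformed lines, over all alternatives run. With glmTreat at 1.5-fold, 3 members were called in M1B26, and 15, 9 and 9 genes of the other lists for MC26 over CT, M1B26 over CT and M1B26 over MC26, in place of 31, 30 and 26. Of 483 alternative values of single members, 461 kept their direction and side of the threshold, 11 fell below it, 3 passed it and 8 changed sign. BAMBI in MC26 and SMAD9 in M1B26 were among those lost with glmTreat (adjusted p 0.252 and 0.252), and SMAD6 in M1B26 was called without a filter (0.0139). FST had too few counts for the filter of 50. With exonic length the ID sum was 98.9, 510 and 425 CPM per kb in CT, MC26 and M1B26, with ID1 at 79.9%, 69.1% and 80.3%, ID3 at 19.6%, 29.3% and 19.2%, and ID2 at 1.54% in MC26 and 0.437% in M1B26. The longer lengths themselves lower these sums.

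Values that changed sign were small. With total counts, which shift the median of all genes to -0.075 in MC26 and -0.091 in M1B26 and the share of called genes that were higher from 48.5% to 35.8% and from 51.5% to 39.5%, the M1B26 values against CT became -0.041 for SMAD7, -0.002 for TCF3 and -0.091 for TCF4. TCF4 was -0.008 with a mean of at least 50 counts. Leaving out 1 library at a time gave, against CT, -0.072 to 0.346 for FST, -0.144 to 0.097 for BMP2, -0.075 to 0.075 for BMPR2 and -0.149 to 0.015 for TCF4 in MC26. In M1B26 against CT it gave -0.048 to 0.128 for SMAD7, -0.110 to 0.217 for NOG, -0.134 to 0.005 for BMPR1A, -0.094 to 0.015 for SMAD5, -0.053 to 0.217 for TCF3 and -0.071 to 0.074 for TCF4. In M1B26 against MC26 it gave -0.123 to 0.019 for ID1, -0.028 to 0.070 for BMPR1A, -0.005 to 0.156 for TCF4 and -0.220 to 0.185 for ITGB6. The cause was not tested.

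Deviations of same-numbered libraries correlated over genes at -0.114 to 0.136, and those of others at -0.129 to 0.119. However, 7 of 9 libraries correlated best with their own number. Same-numbered libraries of MC26 and M1B26 correlated at 0.081, 0.042 and 0.136. Those of CT and MC26 gave -0.114, 0.106 and 0.024, and those of CT and M1B26 gave -0.013, 0.002 and -0.002. Whether equal numbers mark paired libraries was not tested. With a replicate block, members called stayed at 8, 5 and 7, all genes called went from 6081, 7688 and 6215 to 5879, 7513 and 6009, and ITGB6 in M1B26 against MC26 was 0.001. Depth limits FST and ID4 above all.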
